A study of Mus musculus with 48 samples.

Results

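The 9 B cell genes described here are Ms4a1, Cd22, Fcer2a, Cr2, Cd79a, Cd79b, Btk, Pax5 and Spib, taken by gene name from the 54532 genes of the count table, and all 9 were among the 19977 genes with enough counts to be tested. They were followed in poly-A RNA of subcutaneous white adipose tissue (sWAT, the inguinal depot) from C57BL/6 mice aged 8 months. The methods of the study describe them as males. One group, AL, ate ad libitum, and the other, TAN, had food only within a pair of windows each night. The samples carry no transgene, deletion or other agent, and each diet was sampled at 8 AM, 12 PM, 4 PM, 8 PM, 12 AM and 4 AM with 4 libraries per diet and time, 48 in all. The sample labels do not state that the 4 libraries of a group came from separate animals, so p-values measure the spread between libraries. The times are those of the sample labels, and a per-library table of the study lists all 48 libraries 12 hours apart from them. The series text calls the material the stromal vascular fraction, whereas adipocyte transcripts such as Adipoq (adiponectin) stood at 551 to 7053 CPM (counts scaled by the size of each library) in these libraries and the study's methods describe whole tissue.

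B cells recognise antigen through a surface immunoglobulin that signals through the paired chains Cd79a and Cd79b. Co-receptors tune that signal, kinases such as Btk carry it onward, and transcription factors such as Pax5 and Spib hold the cells in the B lineage. Mature follicular B cells fill the follicles of lymph nodes, and the inguinal node lies inside this fat depot. Whether the node was taken out before the bulk RNA was made is not given in the sources used here. The study's methods leave out lymph nodes where cells of the stromal vascular fraction were isolated, a step not described for the bulk RNA. In bulk tissue, fewer B cells in the depot, less RNA per B cell and less of the node in the sample cannot be told apart. That holds for every level below.

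The promoters of Cd79a, Cd22 and Cr2 are shown because the levels of these genes varied together from library to library and because their windows hold the letters that B lineage factors are known to read. RefSeq gives a promoter on GRCm38.p6 for 7 of the 9 genes, 9 promoters in all. The 250 bases before the start site are printed, at chr7:24897247-24897496 on the plus strand for Cd79a, chr7:30879029-30879278 on the minus strand for Cd22 and chr1:195176720-195176969 on the minus strand for Cr2. Capitals mark matches to the motif letters, which were chosen after the sequences had been looked at.
Cd79a: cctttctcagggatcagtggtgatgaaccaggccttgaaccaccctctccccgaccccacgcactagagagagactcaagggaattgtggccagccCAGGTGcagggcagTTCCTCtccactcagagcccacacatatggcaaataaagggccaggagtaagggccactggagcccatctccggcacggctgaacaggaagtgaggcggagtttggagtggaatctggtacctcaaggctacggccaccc
Cd22: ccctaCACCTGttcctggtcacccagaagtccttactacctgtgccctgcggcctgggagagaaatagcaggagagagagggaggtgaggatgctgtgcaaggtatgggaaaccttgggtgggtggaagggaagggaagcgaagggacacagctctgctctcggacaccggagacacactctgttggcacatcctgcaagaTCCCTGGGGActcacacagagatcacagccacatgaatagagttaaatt
Cr2: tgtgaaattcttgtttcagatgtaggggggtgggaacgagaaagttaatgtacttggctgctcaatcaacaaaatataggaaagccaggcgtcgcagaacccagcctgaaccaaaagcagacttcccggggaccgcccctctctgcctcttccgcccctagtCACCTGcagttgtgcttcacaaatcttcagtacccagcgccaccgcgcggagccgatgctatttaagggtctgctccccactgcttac
The 4 sets of letters were searched on both strands in the full windows of 250 bases before and 50 bases after the start, and no printed match overlaps another. The EBF1 palindrome, TCCC and GGGA with any 2 bases between them, lies 49 bases before the Cd22 start and is held by 0.904% of the 32851 RefSeq promoters. An E-box with the letters CAGGTG is held by 20.2% of all promoters and by those of Cd79a (154 bases before the start), Cr2 (88 before), Cd22 (245 before) and an alternative promoter of Fcer2a. The Ets core GAGGAA, the kind read by the Spi family to which Spib belongs, is held by 28.3% of promoters and by those of Cd79a (140 before) and Btk (9 after the start). The octamer ATGCAAAT is held by 1.735% of promoters and is absent from the 9 windows. A match here is a description of letters and not of binding.

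Total counts ran from 15636378 to 29913310 per library. Mitochondrially encoded genes took 3.41% to 11.9% of counts. Of the 9 genes, 4 overlap another annotated gene in the count table, and the overlapping genes together held at most 1.03% of the member's own counts (for Pax5). Per kilobase of gene model, the chains of the receptor stood highest over the 48 libraries, with a mean FPKM (CPM divided by the gene model's length in kilobases) of 118 for Cd79b and 99.2 for Cd79a. Ms4a1 (CD20) followed at a mean FPKM of 29.7, Spib at 23.5, Fcer2a (the low-affinity IgE receptor CD23) at 18.4 and Cr2 (complement receptor 2, CD21) at 11.6. Cd22 had a mean FPKM of 8.08, Btk 7.96 and Pax5 5.10. The coordinates of all 9 genes in the count table equal those of GENCODE M21 on GRCm38.

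The signal of these genes was present in most libraries and all but missing in some. The CPM of the 9 genes, summed per library, ran from 6.87 to 1818, and its widest gap lay between 33.6 and 239. Below that gap were 10 libraries, 6 of TAN and 4 of AL. They were 3 of the 4 TAN libraries at 4 PM, 2 of TAN at 12 AM, 1 of TAN at 8 PM, 2 of AL at 12 PM and 1 of AL at each of 8 AM and 4 AM. All 4 libraries lay above the gap in TAN at 8 AM, 12 PM and 4 AM and in AL at 4 PM, 8 PM and 12 AM.

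**Figure D1:**
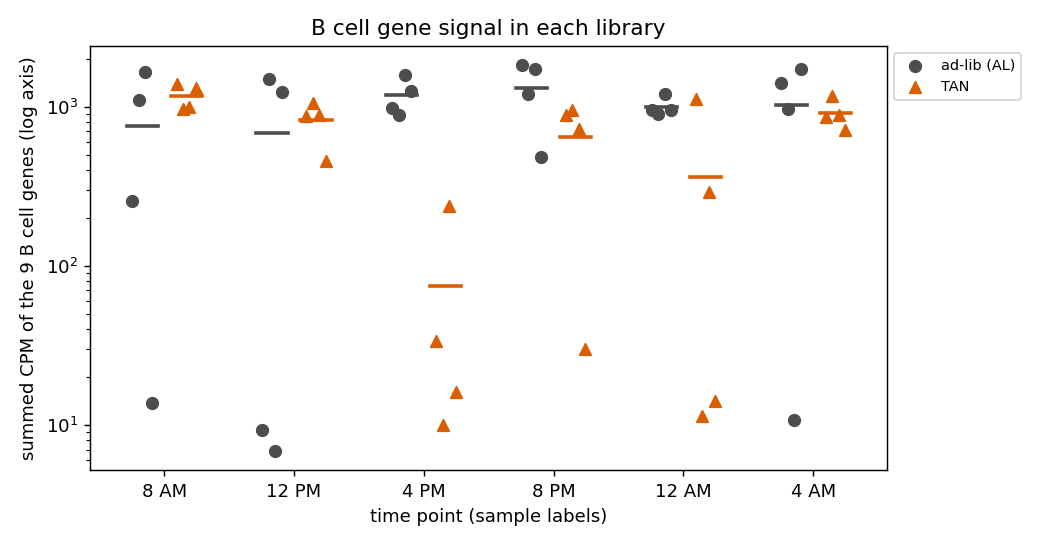
Summed CPM of the 9 B cell genes (log axis) in each of 48 libraries by time point, with ad-lib libraries as grey circles, TAN libraries as orange triangles and a bar for each group's mean. The 10 lowest libraries sit at 33.6 or less and the others at 239 or more, and TAN at 4 PM has the lowest mean, 74.7.

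Ordered by the mean of this sum, the groups ran from AL at 8 PM (1305 ± 615 CPM, SD, n = 4) through AL at 4 PM (1176 ± 313) and TAN at 8 AM (1159 ± 212) down to TAN at 8 PM (646 ± 422), TAN at 12 AM (359 ± 525) and TAN at 4 PM (74.7 ± 110). AL at 4 AM (1026 ± 745), AL at 12 AM (999.9 ± 139), TAN at 4 AM (905 ± 189), TAN at 12 PM (819 ± 255), AL at 8 AM (755 ± 757) and AL at 12 PM (683 ± 787) lay between. Each group differed from the next in this order by less than the larger of the 2 SDs.

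The spread within groups was wide for each of the 9 genes. The SD of log2 CPM among the libraries of a group was 2.76 for Cd22, 2.70 for Fcer2a and 2.69 for Ms4a1, against 0.71 for the median tested gene. Btk had the smallest, 1.41, which still lay above that of 92.3% of tested genes. Over the libraries of one diet the highest Ms4a1 level in CPM was 1766 times the lowest in TAN and 1092 times in AL, whereas for Btk these ratios were 41.1 and 37.6. Cd22 and Fcer2a fell to 0 counts in at least 1 library of each diet, which allows up to 3 counts.

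At 4 PM the TAN libraries held less of all 9 genes than the AL libraries without any overlap, and 5 of the 9 passed the test. Cr2, Cd22, Fcer2a, Pax5 and Btk were called lower in TAN, by log2 fold changes of -3.07 to -4.98. A gene counted as called where its adjusted p lay under 0.05 and its log2 fold change, up or down, exceeded 1, and 7.43% of the tested genes were called lower in TAN at this time. Groups without overlap and lower in TAN were found for 17.8% of the tested genes.

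Among the surface receptors, Cr2, which binds complement-coated antigen, stood at 115, 98.1, 191 and 156 CPM in the AL libraries and at 2.93, 1.03, 11.8 and 1.84 in TAN. Its mean was 140 ± 41.9 (SD, n = 4) in AL and 4.4 ± 5.0 in TAN, and the lowest AL library lay above the highest TAN library. The log2 fold change was -4.98 (SE 1.44, edgeR adjusted p = 0.0226).

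Cd22, an inhibitory lectin of the receptor complex, stood at 45.1, 55.9, 116 and 77.6 CPM in AL and at 1.16, 0.865, 6.90 and 0.558 in TAN. The third TAN library was the highest of its group for Cd22, as it was for each of the 9 genes. The log2 fold change was -4.93 (SE 1.63, edgeR adjusted p = 0.0381).

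Fcer2a, the IgE receptor of follicular B cells, stood at 66.7, 76.6, 130 and 93.4 CPM in AL, whereas TAN held 0, 0.216, 13.2 and 0.558. The first TAN library had no count of Fcer2a, and 3 of the 4 had 10 counts or fewer. The log2 fold change was -4.69 (SE 1.58, edgeR adjusted p = 0.0412).

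Ms4a1, the surface protein CD20, stood at 254, 192, 310 and 270 CPM in AL and at 8.91, 0.162, 57.8 and 2.85 in TAN. The groups did not overlap, and on the log2 scale the TAN libraries differed from one another by more than those of AL did. The log2 fold change was -3.88 (SE 1.51), and its edgeR adjusted p of 0.0702 missed the threshold.

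The signalling chains of the antigen receptor gave the same picture. Cd79a stood at 159, 133, 272 and 185 CPM in AL and at 0.305, 1.3, 52.3 and 3.35 in TAN, with a log2 fold change of -3.70 (SE 1.40, edgeR adjusted p = 0.0632). Cd79b stood at 188, 179, 267 and 247 CPM in AL and at 10.5, 2.0, 58.4 and 3.68 in TAN, with a log2 fold change of -3.56 (SE 1.35, edgeR adjusted p = 0.0636). Neither chain was called, although both were lower in all 4 TAN libraries than in any AL library. The first TAN library held 172 counts of Cd79b beside 5 of Cd79a, the widest departure from their usual near equality.

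Btk, the kinase that passes the receptor signal to phospholipase C, was the member with the smallest difference and the smallest error. It stood at 34.5, 27.2, 52.7 and 40.6 CPM in AL and at 5.01, 3.40, 7.77 and 2.18 in TAN. All 4 TAN libraries kept at least 39 counts of Btk, so that this gene was well above the counting floor throughout. The log2 fold change was -3.07 (SE 0.90, edgeR adjusted p = 0.0233).

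Of the transcription factors, Pax5, which commits cells to the B lineage, stood at 42.4, 54.3, 120 and 85.5 CPM in AL and at 2.81, 0.486, 9.67 and 0.949 in TAN. Its log2 fold change was -4.43 (SE 1.46, edgeR adjusted p = 0.0379). Spib, an Ets family factor of B cells and plasmacytoid dendritic cells, stood at 78.5, 67.9, 125 and 95.4 CPM in AL and at 2.01, 0.540, 21.1 and 0.223 in TAN. Spib was not called, with a log2 fold change of -3.93 (SE 1.5, edgeR adjusted p = 0.0640).

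**Figure D2:**
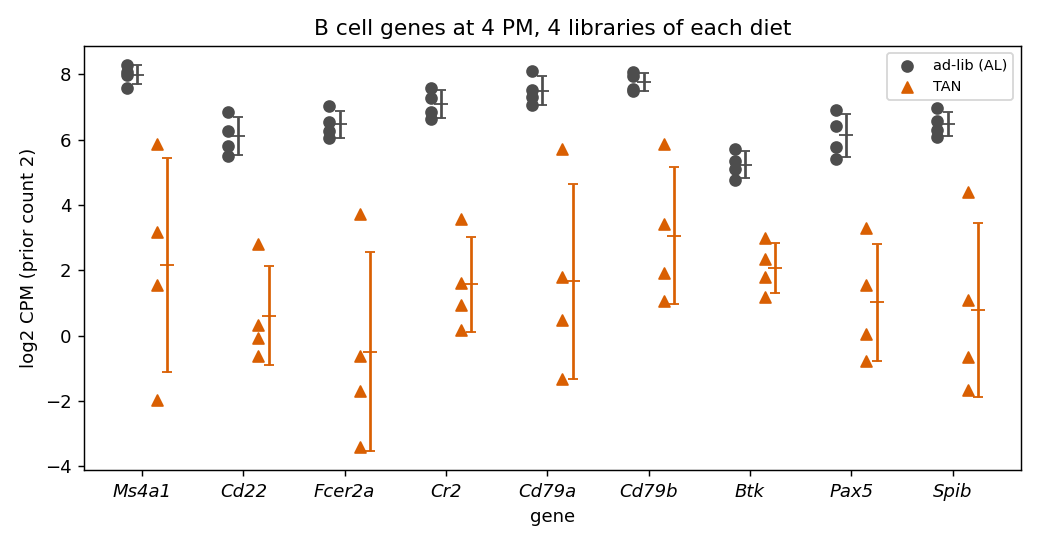
Log2 CPM (prior count 2) of the 9 B cell genes at 4 PM, with the 4 ad-lib libraries as grey circles, the 4 TAN libraries as orange triangles and the mean ± SD of each group beside them. For all 9 genes the TAN libraries lie below the ad-lib libraries without overlap, and the TAN error bars are the longer ones.

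An exact permutation test of log2 CPM at 4 PM gave a two-sided unadjusted p of 0.0286 for each of the 9 genes, the smallest that 4 against 4 libraries allow. Any gene whose groups do not overlap gives this p, so it adds nothing to the lack of overlap. The number called depended on single libraries: it was 9 without TAN replicate 3, 0 without TAN replicate 1, 2 or 4 or AL replicate 3, 2 without AL replicate 4 and 4 without AL replicate 1 or 2. It was 0 with limma voom and 0 with the T cell genes as a covariate. It was 2 (Cr2 and Btk) without the filter on low counts, 8 in a fit of this time point alone and 9 with DESeq2. Of all tested genes at 4 PM, 2071 were called in the main fit, 2457 with limma voom and 0 with the T cell covariate. Without the filter 1258 were called, in the fit of this time point alone 2520 and with DESeq2 2972. With the T cell covariate the log2 fold changes of the 9 genes at 4 PM were -0.20 to -1.43 (median -0.43), against -3.07 to -4.98 (median -3.93) without it.

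At 8 PM the sign was the same for all 9 genes but no gene was called. The fitted log2 fold changes ran from -0.21 for Cd79b to -2.53 for Cr2 (edgeR adjusted p 0.190 to 0.938), and 7.03% of tested genes were called at this time. None of the 9 had an unadjusted p under 0.05 in edgeR, as 28.0% of tested genes had, against 1 in DESeq2 and 2 in limma voom, which also called none.

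Cr2 and Fcer2a alone among the 9 did not overlap between the diets at 8 PM, as 11.6% of tested genes did not with TAN lower. Cr2 stood at 264, 179, 251 and 54.2 CPM in AL and at 52.6, 46.7, 29.0 and 0.901 in TAN, and its highest TAN library lay just under its lowest AL library. Fcer2a stood at 122, 65.2, 129 and 34.1 CPM in AL and at 25.3, 33.2, 25.0 and 1.13 in TAN. The exact permutation test gave an unadjusted p of 0.0286 for each of these 2 genes, a value that their lack of overlap fixes. For the other 7 it gave 0.114 to 0.571. Cd79b, in contrast, stood at 324, 231, 297 and 89.7 CPM in AL and at 292, 289, 222 and 9.01 in TAN, so that 3 of the 4 TAN libraries lay within the AL range.

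At 12 AM the fitted differences were again below 0 for all 9 genes, from -1.15 for Cd79b to -1.90 for Fcer2a, and none was called (edgeR adjusted p 0.373 to 0.663; 0 with an unadjusted p under 0.05; 0.135% of tested genes called), nor with DESeq2 or limma voom. The TAN group was split: Ms4a1 stood at 273, 1.0, 74.5 and 3.18 CPM in its 4 libraries, against 257, 273, 231 and 206 in AL. TAN replicate 1 was near the AL levels and TAN replicates 2 and 4 held almost none.

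At the other times the spread of the AL libraries was the wider one. At 8 AM the fitted differences were 0.29 (Cd79b) to 1.24 (Cr2), with Ms4a1 at 82.3, 184, 399 and 2.38 CPM in AL and at 286, 192, 215 and 235 in TAN. At 12 PM they were -0.06 (Ms4a1) to 1.18 (Cd22), with Ms4a1 at 0.432, 472, 1.14 and 261 CPM in AL and at 194, 247, 153 and 110 in TAN. At 4 AM they were -0.52 (Cd79a) to 0.45 (Pax5), with Ms4a1 at 276, 253, 0.677 and 435 CPM in AL and at 188, 264, 203 and 156 in TAN. For Ms4a1, AL libraries near 0 stood beside AL libraries above every TAN library at each of these times. With edgeR none of the 9 was called or had an unadjusted p under 0.05 at these 3 times, when 0.0150%, 0.0901% and 0% of tested genes were called, and DESeq2 and limma voom called none either.

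**Figure D3:**
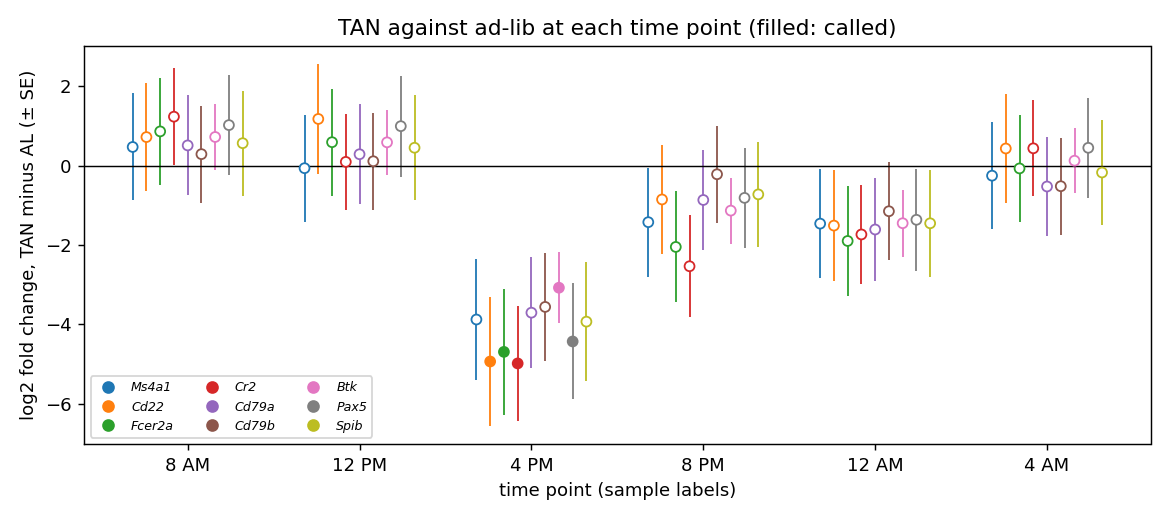
Fitted log2 fold change of TAN over AL with its SE (edgeR) for each of the 9 B cell genes at the 6 time points, with filled symbols for called genes. The differences lie below 0 for all 9 genes at 4 PM, 8 PM and 12 AM, and the 5 filled symbols are all at 4 PM.

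Averaged over the 6 time points, the difference was below 0 for all 9 genes, from -0.69 (Pax5) to -1.25 (Cr2), and none was called, here and for the tests over several times on the adjusted p alone (edgeR adjusted p 0.136 to 0.465, 3 genes with an unadjusted p under 0.05, as 21.5% of tested genes had, and 5.42% of tested genes called). A TAN effect that differed between time points was called for none of the 9 (edgeR adjusted p 0.101 to 0.490, 2 with an unadjusted p under 0.05, as 30.2% of tested genes had, and 8.98% of them called). So the lower level at 4 PM was not shown to differ from the TAN effect at other times in this fit. Limma voom called 5 of the 9 for that difference (Cd22, Fcer2a, Cr2, Pax5 and Btk) and 4439 of the 19977 tested genes. DESeq2 called Cr2 alone of the 9 and 4031 of all tested genes. Variation over the time points within TAN was called for none (edgeR adjusted p 0.0673 to 0.332, 2 with an unadjusted p under 0.05, as 42.2% of tested genes had, and 23.0% of them called). DESeq2 called it for 4 (Fcer2a, Cr2, Pax5 and Btk) and for 6960 of all tested genes. Limma voom called it for none of the 9 and for 6678 of all tested genes. Within AL it was called for none with any of the 3 tools (edgeR adjusted p 1.0 for all 9, 0 with an unadjusted p under 0.05, and 0.0551% of tested genes called). Without TAN replicate 1 at 12 AM, the edgeR counts were 1 (Cr2) for the mean over the day, 2 (Cr2, Btk) for the difference between time points and 3 (Fcer2a, Cr2, Btk) for variation within TAN. Variation within TAN was also called for Cr2 without AL replicate 4 at 8 AM or AL replicate 1 or 3 at 12 PM, for Cd79a and Fcer2a without TAN replicate 3 at 4 PM and for Btk without TAN replicate 4 at 8 PM. The numbers of all tested genes called in these fits with 1 library left out are not given here.

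The proportions of the 9 genes to one another were steadier for some than for others. Over the 38 libraries in which every member had at least 100 counts, the CPM of Cd79a was 0.546 to 1.12 times that of Cd79b (median 0.925) and that of Ms4a1 0.415 to 1.61 times (median 1.16). The corresponding medians were 0.642 for Cr2, 0.411 for Spib, 0.379 for Fcer2a, 0.279 for Pax5, 0.248 for Cd22 and 0.154 for Btk. The widest ranges were those of Cr2 (0.131 to 0.881), Fcer2a (0.0864 to 0.573) and Cd22 (0.0717 to 0.515). The SD of the log2 ratio over these libraries was least for Cd79a (0.25) and Spib (0.32) and most for Cr2 (0.76) and Cd22 (0.69). Low ratios of Cr2, Pax5, Cd22, Fcer2a and Btk were found in some AL libraries. Among these were AL replicate 3 at 8 AM, AL replicate 2 at 12 PM and AL replicate 4 at 4 AM. In them Cr2 was 0.202, 0.409 and 0.211, Pax5 0.0996, 0.0880 and 0.118 and Cd22 0.111, 0.0717 and 0.124 times Cd79b. Fcer2a was 0.237, 0.184 and 0.227 times and Btk 0.0669, 0.0914 and 0.0872 times, both with shorter gene models than Cd22. Ms4a1, with a longer gene model than Cd22, stood at 0.915, 1.29 and 1.02 times, against its median of 1.16. In the same libraries log2 levels over all tested genes changed by -0.08, -0.08 and -0.13 per doubling of gene length, and Lyz2 (lysozyme of macrophages) stood at 2490, 3033 and 2820 CPM. TAN replicate 3 at 8 PM had ratios as low, with Cr2 at 0.131, Pax5 at 0.110 and Cd22 at 0.0850 times Cd79b, a change of -0.07 per doubling of gene length and Lyz2 at 1468 CPM. In TAN replicates 1 and 2 at 8 PM Cr2 was 0.180 and 0.162 times Cd79b, the changes per doubling were -0.05 and -0.08 and Lyz2 stood at 2085 and 2184 CPM. The part of gene length in these proportions was not tested.

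At 8 PM the proportions themselves differed between the diets. Relative to Cd79b, 6 of the other 8 genes lay lower in every TAN library than in any AL library, as did 3.53% of tested genes, a comparison chosen after the values were seen and given without a test. Cr2 was 0.604 to 0.845 times Cd79b in AL and 0.10 to 0.180 times in TAN. Fcer2a was 0.282 to 0.433 times in AL and 0.0864 to 0.125 times in TAN, and Ms4a1 1.14 to 1.27 times in AL and 0.415 to 0.799 times in TAN. Btk, Spib and, by a narrow margin, Cd22 followed the same order, with 0.0697 to 0.118 times for Btk in TAN against 0.164 to 0.219 in AL. Cd79a and Pax5 overlapped between the diets, Cd79a through TAN replicate 4 alone (1.09 times). TAN replicate 4 is one of the 10 libraries with the least B cell signal and held 5 counts of Cd22, 16 of Cr2 and 16 of Btk, so its ratios rest on few counts. Other measures of the libraries moved with this difference. The change in log2 level per doubling of gene length was -0.05, -0.08, -0.07 and -0.03 in the TAN libraries and -0.03 to 0.02 in AL, and genes of the provisional TEC biotype took 0.0294% to 0.0394% of counts in TAN and 0.0807% to 0.104% in AL. Their part in the proportions at 8 PM was not tested. Cr2 and Fcer2a are known as genes of mature follicular B cells. Ms4a1, Btk, Spib and Cd22 also did not overlap. Whether the maturity of the B cells had a part was not tested. Relative to Cd79b, Ms4a1, Fcer2a, Cr2 and Spib at 4 PM and Fcer2a at 12 AM also lay lower in every TAN library. At 4 AM Ms4a1, Cd22 and Pax5 lay higher in every TAN library than in any AL library. At each of these times some libraries were among the 10 with the least B cell signal, and their ratios rest on few counts. The share of tested genes with such a lack of overlap at these times is not given here.

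**Figure D4:**
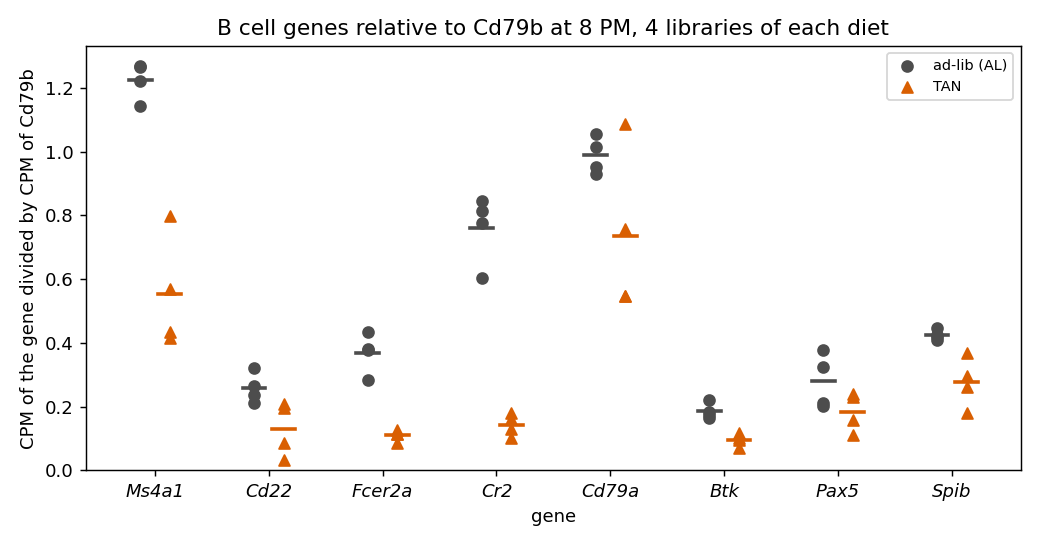
CPM of each B cell gene divided by the CPM of Cd79b in the 4 ad-lib (grey circles) and 4 TAN libraries (orange triangles) at 8 PM, with a bar for the group mean. Cr2 lies at 0.604 to 0.845 in ad-lib and at 0.10 to 0.180 in TAN, while Cd79a and Pax5 overlap.

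T cell genes moved with the B cell genes in nearly all libraries. The 16 T cell genes (Cd3d, Cd3e, Cd4, Cd8a and others) summed to 9.41 to 42.2 CPM in the 10 libraries with the least B cell signal, and to 129 or more in the other 38. In 36 of those 38 the T cell sum was 0.506 to 1.14 times the B cell sum. In TAN replicates 1 and 2 at 8 PM it was 3403 and 3555 CPM, 3.86 and 3.73 times the B cell sum, and these libraries also had the least Adipoq of all 48, 890 and 551 CPM. Without both of them, as an alternative added after the data were seen, none of the 9 genes was called at 8 PM, over the day, between time points or over time in either diet. With the T cell genes as a covariate, Cr2, Btk, Fcer2a and Cd22 were called lower in TAN at 8 PM, when that fit called 12.0% of tested genes, by log2 fold changes of -2.78, -1.38, -1.84 and -1.60 (edgeR adjusted p 0.000309, 0.00493, 0.0181 and 0.0189). Without the covariate they stood at -2.53, -1.13, -2.05 and -0.85. The T cell genes themselves had a median log2 fold change of 1.11 at 8 PM. The covariate fit was not run without TAN replicates 1 and 2 at 8 PM. How far these calls rest on those libraries was not tested.

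**Figure D5:**
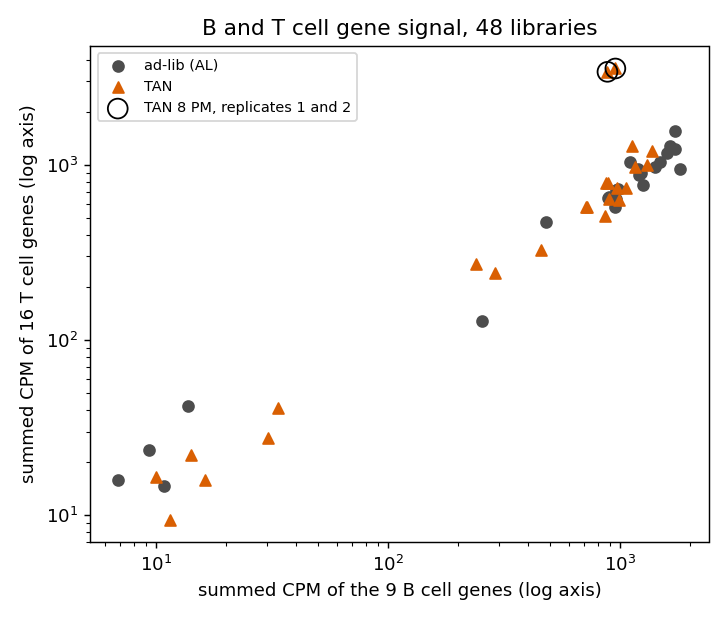
Summed CPM of 16 T cell genes against that of the 9 B cell genes (both axes log) in 48 libraries, ad-lib as grey circles and TAN as orange triangles. The libraries form a band except TAN replicates 1 and 2 at 8 PM (ringed), whose T cell sums are 3403 and 3555 CPM.

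Other lists of genes that B cells use were lower in TAN at 4 PM too, as were the 16 T cell genes (median log2 fold change -3.30). Not every gene of these lists is made by B cells alone, whether it was called or not. Of 20 genes of antigen receptor signalling, 17 were called lower in TAN and none higher, with a median log2 fold change of -3.12 against -0.09 for all tested genes, of which 7.43% were called lower. Genes of these lists that are named only for being called or not were chosen after their values were seen. Ptpn6, the phosphatase that Cd22 recruits, was called at -3.13 (SE 1.08, edgeR adjusted p = 0.0446). Cd81, a tetraspanin that many cell types make, was not called, at 0.57 (SE 0.31, edgeR adjusted p = 0.187), and neither were Bcl10 and Cd72. Of 10 genes listed as transcription factors and partners of the lineage, 8 were called lower (median -3.26), among them Pou2af1, the octamer coactivator, at -4.46. This list also holds Cd37, a surface tetraspanin and not a transcription factor, which was among those called (-3.16). Ebf1, which adipocytes and their progenitors also express, was not called at 0.26 (SE 0.35, edgeR adjusted p = 0.645), and Pou2f2 was the other exception.

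Antibody genes were lower too. Of 12 immunoglobulin constant region genes, 10 were called lower in TAN at 4 PM (median -3.96; Iglc3 and Igha were not), with the kappa chain Igkc at -3.76 (SE 0.90, edgeR adjusted p = 0.0111) and the IgM chain Ighm at -2.42 (SE 0.50, edgeR adjusted p = 0.00705). Constant regions have near-identical stretches, and how shared reads were counted is not given in the sources used here. Of 8 plasma cell genes 2 were called lower, Jchain (-3.69), which joins IgM and IgA into polymers, and Derl3, while Xbp1, which secretory and fat cells also use, stood at 0.66 (edgeR adjusted p = 0.138). Of 12 genes of B cell surface and homing 4 were called lower (among them Tnfrsf13b, Fcrl1 and Fcrl5; median -3.63). Their most abundant members, Ltb and Ccr7, were at -2.91 and -3.31 and not called. Of 7 germinal centre genes 3 were called lower (among them Gcsam and Rgs13, each below 2 FPKM on average), and Fas and Bcl6 were not.

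Markers of other cells in the tissue differed in their pattern at 4 PM. The 16 T cell genes all had fitted differences below 0 (median -3.30) and 3 were called lower (among them Cd3g and Cd4). Their sum was 649 to 1173 CPM in AL and 15.9 to 274 in TAN. Of 9 tested genes of lymph node stroma, venules and lymphatics 3 were called lower, Lyve1, Chst4 and Cxcl13, the follicular chemokine that draws B cells, at -2.86 (SE 0.77, edgeR adjusted p = 0.0174). Glycam1, made by high endothelial venules, stood at 0 CPM in at least 1 library of each diet and at up to 117 CPM, and was not called (-3.54, edgeR adjusted p = 0.0980). Macrophage genes had a median of -0.56 with 1 of 10 called lower (Csf1r), and mast cell (7) and skeletal muscle genes (6) had none called. Of 9 adipocyte genes 2 were called higher, Fabp4 (1.44) and Retn (1.56), as 2.93% of tested genes were, and the median was 1.15. The part of these cells in the B cell result was not tested beyond the T cell covariate.

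At 8 PM, 2 of the 20 receptor signalling genes were called lower, Pik3ap1 (-2.36) and Malt1 (-1.20). Of the 10 genes of the transcription factor list 1 was, Ebf1 (-1.18). These shares are near the 7.03% of all tested genes that were called at this time. The T cell genes had a median of 1.11 at this time and none was called. At 12 AM none of the genes of these lists was called, and the medians of the B cell lists were -1.30 for receptor signalling and -1.43 for transcription.

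The genes whose level ran most nearly parallel to the 9 were sought among 8188 tested genes at least as abundant as the lowest member, by the SD over 48 libraries of the difference between their log2 CPM and the members' mean. Among the 10 closest were Ighd (the IgD heavy chain), with an SD of 0.33, Btla (0.40), H2-Ob (0.51) and Pou2af1 (0.52). Ly6d (0.53), H2-Eb2 (0.55), Il7r (0.62) and Fcrl1 (0.64) were also among them, and the median of the genes compared was 2.76. Btla and Il7r are made by T cells as well, and the libraries share depth and dissection. Measured the same way against the other 8, the members themselves ran from 0.52 (Cd79b and Pax5) to 0.88 (Fcer2a), with Btk apart at 1.37.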

How the data were processed

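Poly-A RNA of sWAT from 24 AL and 24 TAN libraries was analysed, and groups were taken from the sample labels. The authors deposited raw counts per gene without normalization, together with FPKM averaged over the libraries of each group. Per the labels, the submitters' processing notes list TopHat 1.3.3, DESeq2 1.20.0, edgeR and limma and the builds mm9, mm10 and GRCm38 without their roles. The counting tool and its strand setting are not given in the sources used here. The deposited mean FPKM was 0.850 to 1.09 times the mean computed from the counts for the same label, and 0.0345 to 29.5 times for labels 12 hours apart. In all, 0 columns of sample values were left unused.

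CPM was computed with TMM factors, log2 CPM with a prior count of 2, and FPKM by dividing CPM by the deposited gene length. Genes kept by filterByExpr (minimum count 10) were fitted in edgeR 4.0.16 (R 4.3.3) in 1 robust quasi-likelihood model of 12 groups, with adjusted p-values (Benjamini-Hochberg) over all 19977 tested genes. The SE of a log2 fold change was derived from its F statistic. Single genes were also tested by exact two-sided permutation of log2 CPM over the 70 splits of 8 libraries. The model was tested on simulated counts. Alternatives were no filter, RLE factors, DESeq2 1.42.0, limma 3.58.1 voom, a replicate block, a T cell covariate (mean log2 CPM of 16 genes), a separate fit per time point, any fold change and each library left out.

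The 9 genes, the gene lists and the tests were chosen with earlier results of these data known. Beside the 9 genes, the text names the 2 genes of each list with the highest mean FPKM that a result concerns, genes a result turns on and the 10 genes closest in pattern. Some genes that this rule covers are not reported here. Pairing of libraries by replicate number was not assumed in the main fit. Of 24 same-numbered pairs, 10 had residuals correlated over 0.1 (median -0.0127, range -0.586 to 0.844). At 4 PM the correlations were 0.466, 0.0204, 0.196 and 0.335. Differently numbered pairs were not compared, so these values cannot settle whether the numbers pair libraries. No 2 libraries were identical. A count of 0 allows up to 3 counts, for counting error only.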

Additional observations from a re-analysis of the deposited data

Results flagged for a closer look

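In each group of 4 libraries, the highest or lowest library was set apart where its gap to the next one, as a share of the group's range, passed Dixon's critical value. Of 108 groups of gene, diet and time, 12 passed. Among normally distributed values about 1 in 20 would pass by chance, but CPM was not shown to be so distributed. The share to be set apart by chance here is therefore not known.

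TAN replicate 3 at 4 PM stood above the other 3 TAN libraries for Ms4a1 (57.8 CPM), Cd79a (52.3), Cd79b (58.4), Cd22 (6.90), Fcer2a (13.2) and Spib (21.1). TAN replicate 1 at 12 AM stood above the others for Cr2 (141 CPM) and Btk (29.2). The lowest library stood apart for Spib (35.9 CPM) and Btk (16.3) in TAN at 12 PM, both in replicate 4, for Spib in TAN replicate 4 at 8 PM (1.63 CPM) and for Cr2 in TAN replicate 4 at 4 AM (84.1 CPM). All 12 were TAN libraries, and the genes share their libraries, so the 12 are not independent of one another.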

How the results depend on the processing

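At 4 PM the fitted differences of all 9 genes stayed below 0 under every alternative run, but with the T cell covariate their median was -0.43 in place of -3.93, and the number called, 5, did not stay. It was 2 without the filter on low counts, 0 with limma voom, 0 with the T cell covariate, 8 in a separate fit and 9 with DESeq2. By exact permutation all 9 had an unadjusted p under 0.05, which their lack of overlap fixes. With 1 library left out the number called was 0 to 9. With the T cell covariate it was 4 at 8 PM, 1 for the mean over the day (Cr2), 1 for the difference between time points (Cr2) and 3 for variation within TAN (Cd22, Fcer2a and Cr2). By exact permutation, on the unadjusted p, it was 2 at 8 PM. For the difference between time points it was 5 with limma voom and 1 with DESeq2, and for variation within TAN 4 with DESeq2. With 1 library left out it was 0 to 1 for the mean over the day, 0 to 2 for the difference between time points and 0 to 3 for variation within TAN. Whether the replicate numbers pair libraries was not settled. The replicate block left 5 members called at 4 PM and changed no other call of a member. RLE factors, any fold change and leaving out both TAN libraries at 8 PM with the highest T cell sums changed no number of members called. The cause of these changes was not tested.

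Some differences that were not called changed sign. At 12 PM the replicate block gave -0.011 for Cd79a, -0.17 for Cd79b and -0.23 for Cr2. The T cell covariate gave -0.42 for Ms4a1, -0.014 for Cd79a and -0.16 for Cd79b at 8 AM, 0.092 for Ms4a1 and -0.060 for Cd79b at 12 PM, and 0.16 for Ms4a1, 0.21 for Fcer2a and 0.19 for Spib at 4 AM. Limma voom gave 3.28 for Ms4a1 at 12 PM, and 1.53 for Ms4a1, 0.75 for Cd79a, 0.95 for Cd79b, 1.49 for Fcer2a and 1.73 for Spib at 4 AM. The difference of mean log2 CPM gave 3.33 for Ms4a1 at 12 PM, and 1.52 for Ms4a1, 0.75 for Cd79a, 0.94 for Cd79b, 1.49 for Fcer2a and 1.68 for Spib at 4 AM. With 1 library left out, the range was -0.12 to 1.37 for Cd79b at 8 AM and -0.49 to 0.19 at 8 PM. At 12 PM it was -0.14 to 0.92 for Cd79a, -0.31 to 1.04 for Cd79b, -0.33 to 0.71 for Cr2 and -0.49 to 0.99 for Ms4a1, and at 4 AM -0.48 to 0.28 for Fcer2a, -0.26 to 0.67 for Btk, -0.66 to 0.19 for Ms4a1 and -0.58 to 0.20 for Spib.

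Numbers of all genes called also moved. At 4 PM they fell from 2071 to 1258 without the filter and to 0 with the T cell covariate. At 8 PM they were 1404, against 910 without the filter, 2405 with the T cell covariate, 2520 with limma voom, 2333 at any fold change and 55 in a separate fit. The difference between time points was called for 1793 genes, against 937 without the filter, 4439 with limma voom, 4031 with DESeq2 and 3772 without both TAN libraries at 8 PM with the highest T cell sums, which also moved the mean over the day from 1082 to 2667 and time in AL from 11 to 32. Variation within TAN was called for 4603, against 2972 without the filter and 6960 with DESeq2, and within AL for 113 with DESeq2 and 49 with the covariate. At 8 AM, 12 PM, 12 AM and 4 AM, where 3, 18, 27 and 0 genes were called, the alternatives that moved the number by over 1.5 times gave 0 to 40, 1 to 101, 0 to 301 and 1 to 4.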

Other observations

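Averaged over the day, antibody genes were lower in TAN while none of the 9 B cell genes was called. Of 12 immunoglobulin constant region genes, 5 were called lower (edgeR adjusted p under 0.05), where 5.42% of tested genes were called in either direction. Ighg1, the IgG1 heavy chain, had a log2 fold change of -2.94 (SE 0.66, edgeR adjusted p = 0.00774) with a median of 31.7 CPM over AL and 5.53 over TAN libraries. Ighm, the IgM chain, had -0.91 (SE 0.19, edgeR adjusted p = 0.00446) with medians of 953 and 635 CPM. Igkc (-1.27), Ighg2b (-1.70) and Ighg2c (-1.86) were the other 3. Jchain, the joining chain of plasma cells, was called at -1.37 (SE 0.36, edgeR adjusted p = 0.0213), with medians of 134 and 38.4 CPM. These genes were singled out after their values were seen, and whether their mean over the day differs from that of the 9 genes was not tested.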
